A study of Mus musculus with 6 samples.

Results

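Transforming growth factor beta (TGF-beta) and bone morphogenetic protein (BMP) signals reach a cell as secreted dimeric ligands. The ligands bring type I and type II receptor kinases together, and the activated type I receptor phosphorylates SMAD transcription factors, which join SMAD4 and enter the nucleus. In the kidney the TGF-beta branch, acting through SMAD2 and SMAD3, is best known as a driver of matrix deposition, and the BMP branch, acting through SMAD1 and SMAD5, for maintaining tubular epithelium, with BMP7 as its main renal ligand. The 42 genes described here are 9 ligands, 4 latent TGF-beta binding proteins, 10 receptors, 7 SMADs, 3 extracellular antagonists, 4 intracellular inhibitors and 5 target genes. They were taken by name from a fixed list, all 42 were found by Ensembl gene ID among the 57180 listed genes, and 40 of them had enough counts to be tested.

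Total RNA from the kidneys of 6 wild-type male C57BL/6J mice was sequenced, each mouse as 1 library. In the nanoplastic group 3 mice received cationic polystyrene nanoparticles by mouth at 200 mg/kg once daily for 6 weeks, and in the vehicle group 3 mice received deionized water (0 mg/kg). The mice were 7 weeks old when obtained, and no label used here gives the particles' size. The kidney is a mixture of cell types, so fewer cells of a type and less RNA per cell cannot be told apart in these libraries.

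Libraries held 19408534 to 23793640 expected counts in nanoplastic mice and 23420454 to 26292760 in vehicle mice. Markers of the proximal tubule, such as Lrp2 and Slc34a1, were all detected. In CPM, counts relative to library size after TMM scaling, the 8 of them summed to 14269 to 16875 CPM in nanoplastic and 15895 to 16653 CPM in vehicle libraries, so the label kidney held. Nanoplastic 1 and vehicle 3 stood apart. The 6 adipocyte markers summed to 106.1 CPM in nanoplastic 1 and to 27.7 CPM in vehicle 3, against at most 0.650 CPM in each of the other libraries, where Plin1 had 0 counts. The 6 urothelial markers summed to 18.4 CPM in nanoplastic 1 and to between 1.78 and 5.46 CPM in the others. The 6 principal cell markers of the collecting duct summed to 295.2 CPM in nanoplastic 1 and to between 160.1 and 185.9 CPM in the others. Of these, Aqp2 had 148.7 CPM in nanoplastic 1 and 43.3 to 61.7 CPM in the others. Avpr2, Fxyd4 and Hsd11b2 were also highest in nanoplastic 1, but Aqp3 and Scnn1g were not. The sum of the proximal tubule markers was lowest in nanoplastic 1.

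None of the members passed the test of nanoplastic against vehicle. With edgeR's quasi-likelihood test, 0 of 40 had a Benjamini-Hochberg adjusted p under 0.05, where 0 of all 18092 genes tested (0.0%) did; DESeq2 had 58 among all genes. The lowest adjusted p of a member was 0.673. At an unadjusted p under 0.05 there was 1 member, Acvr2b, or 2.5% of the members, against 7.19% of all genes. DESeq2 also had 0 members past the adjusted threshold, with 2 at the unadjusted level, and limma-voom had 0, with 1 at the unadjusted level. The groups did not overlap in 1 member, Inhbb, or 2.5%, against 12.9% of all genes (6.54% with nanoplastic higher and 6.32% with nanoplastic lower). Of the 40 tested members 17 had a positive and 23 a negative log2 fold change, with a median of -0.021 that turned to 0.027 with scaling by library size alone, where the median over all genes was 0.007.

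The intervals show what size of difference these data could have missed. For 38 of 40 members the 95% confidence interval of the log2 fold change lay inside a 2-fold change in either direction (83.9% of all genes), and for 30 of 40 inside 1.5-fold (63.1% of all genes). The exceptions at 2-fold were Ltbp2 and Nbl1. Inside 1.5-fold lay the intervals of all 7 SMADs, 9 of 10 receptors and all 4 intracellular inhibitors, but of 3 of 8 ligands and 0 of 2 extracellular antagonists.

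**Figure D1:**
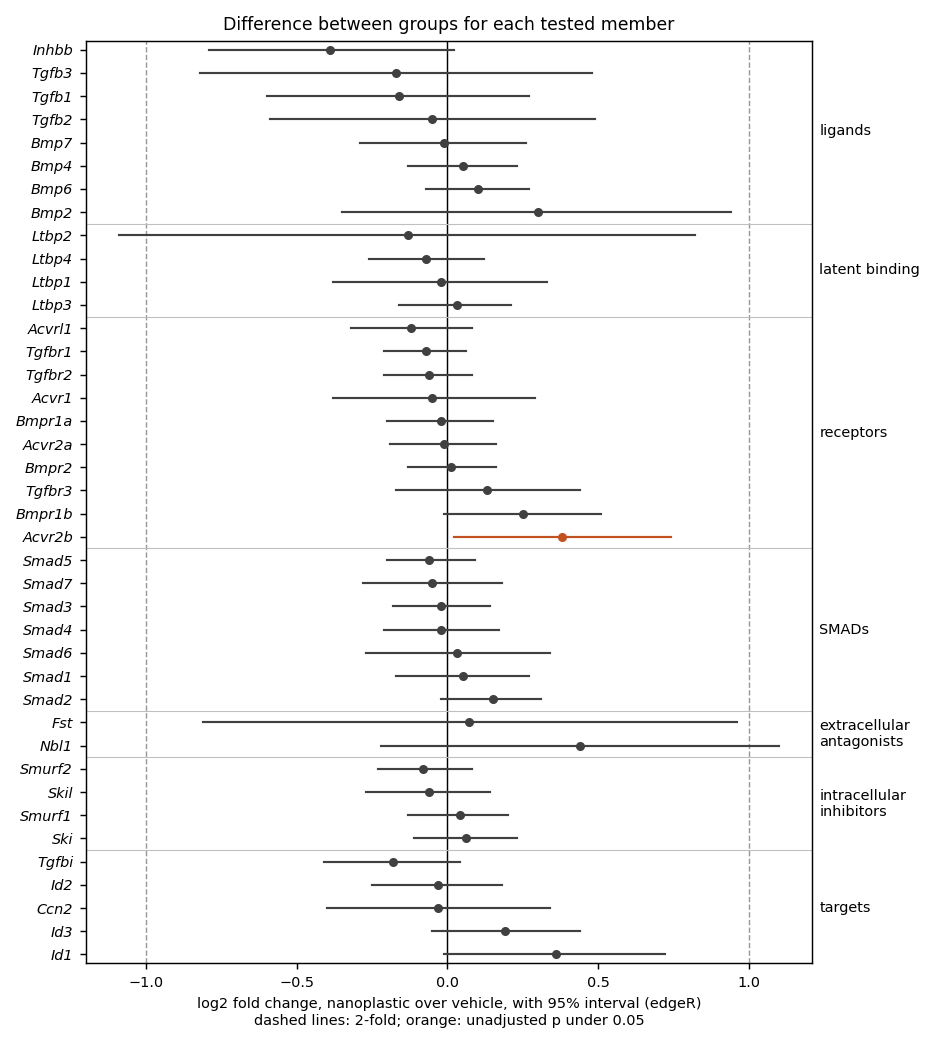
Log2 fold change of nanoplastic over vehicle (horizontal axis) with its 95% interval for each of the 40 tested members, grouped by role; dashed lines mark 2-fold. The intervals of 39 members include 0, and that of Acvr2b, drawn in orange, runs from 0.02 to 0.74.

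The ligands most abundant per length were BMPs, not TGF-betas. Levels of different genes are given in TPM, a level corrected for transcript length and scaled to a fixed total, computed without the 7SL RNA genes, since counts alone favour long transcripts. Bmp4 averaged 20.6 ± 3.46 TPM in nanoplastic and 17.0 ± 5.38 TPM in vehicle kidneys (SD, n = 3 each), Bmp6, known as a regulator of iron balance in the liver, 12.9 ± 1.13 and 11.7 ± 1.15 TPM, and Bmp7 9.79 ± 1.28 and 9.62 ± 1.35 TPM. In vehicle kidneys the means of Bmp4 and Bmp6 lay within 1 SD of Bmp4 of each other, so these neighbours do not differ beyond their spread there, whereas in nanoplastic kidneys Bmp4 lay further above. The measures differ for Bmp4 between groups. Its log2 fold change was 0.05 on counts with edgeR and 0.35 with limma on log2(TPM + 0.1), where the adjusted p was 0.932. Tgfb1 followed at 2.83 ± 0.825 TPM in nanoplastic and 2.79 ± 0.252 TPM in vehicle kidneys. Inhbb, Tgfb3, Bmp2 and Tgfb2 had mean levels between 0.506 and 1.23 TPM in either group.

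Tgfb1, the ligand most tied to renal fibrosis, had 3.82, 2.80 and 3.95 CPM in nanoplastic mice 1, 2 and 3, against 3.35, 4.47 and 3.99 CPM in vehicle mice 1, 2 and 3. The groups overlapped, with nanoplastic 2 lowest and vehicle 2 highest. This gave a log2 fold change of -0.16 (SE 0.20, 95% interval -0.60 to 0.27), and of -0.27 to -0.019 with 1 library left out, the value nearest 0 being that without nanoplastic 2. Macrophages are a known source of TGF-beta 1, and the 8 macrophage markers, all above the filter, summed to 98.4 to 104.0 CPM in nanoplastic and 108.1 to 117.7 CPM in vehicle libraries; their part in the value of Tgfb1 was not tested. For the other isoforms the log2 fold change was -0.05 in Tgfb2 (SE 0.24) and -0.17 in Tgfb3 (SE 0.29).

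Bmp7 had 19.5, 25.6 and 27.6 CPM in the nanoplastic libraries, against 22.8, 23.2 and 27.1 CPM in the vehicle libraries. Nanoplastic 1 was lowest and nanoplastic 3 highest of all 6, so the vehicle values lay within the nanoplastic range. The log2 fold change was -0.01 (SE 0.12, interval -0.29 to 0.26), and it was 0.13 without nanoplastic 1 and 0.21 without both nanoplastic 1 and vehicle 3. Podocytes, the filtering epithelium of the glomerulus, are a known site of Bmp7, and the 8 podocyte markers were likewise lowest in nanoplastic 1 (249.2 CPM) and highest in nanoplastic 3 (296.9 CPM). In vehicle libraries they summed to 269.8 to 285.3 CPM. The summed markers of proximal tubule, distal tubule and intercalated cells were also lowest in nanoplastic 1 and highest in nanoplastic 3, and the part of any of these cells in the value of Bmp7 was not tested.

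Bmp4, a ligand of the stroma and endothelium, had 17.0, 15.3 and 16.2 CPM in nanoplastic and 15.6, 15.2 and 16.1 CPM in vehicle libraries. Bmp6 had 34.6, 33.7 and 30.8 CPM in nanoplastic and 31.6, 28.7 and 31.9 CPM in vehicle libraries. The groups overlapped in both genes, with log2 fold changes of 0.05 (SE 0.08) for Bmp4 and 0.10 (SE 0.08) for Bmp6. Bmp2, a rarer ligand, had a log2 fold change of 0.30 (SE 0.29), with 1.22 to 2.13 CPM in nanoplastic and 1.04 to 1.70 CPM in vehicle libraries.

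Inhbb, which encodes the beta B subunit of activins and inhibins, was the only member whose groups did not overlap. It had 3.17, 3.46 and 2.704 CPM in the nanoplastic libraries, against 3.55, 4.16 and 4.55 CPM in the vehicle libraries. All 3 nanoplastic values lay below all 3 vehicle values, although nanoplastic 2 and vehicle 1 were close. Its log2 fold change was -0.39 (SE 0.18, interval -0.79 to 0.02; edgeR adjusted p = 0.702), and 6.32% of all genes had nanoplastic libraries entirely below vehicle. Inhba, the beta A subunit, was below the count filter, with 17 counts over the nanoplastic and 16 over the vehicle libraries.

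**Figure D2:**
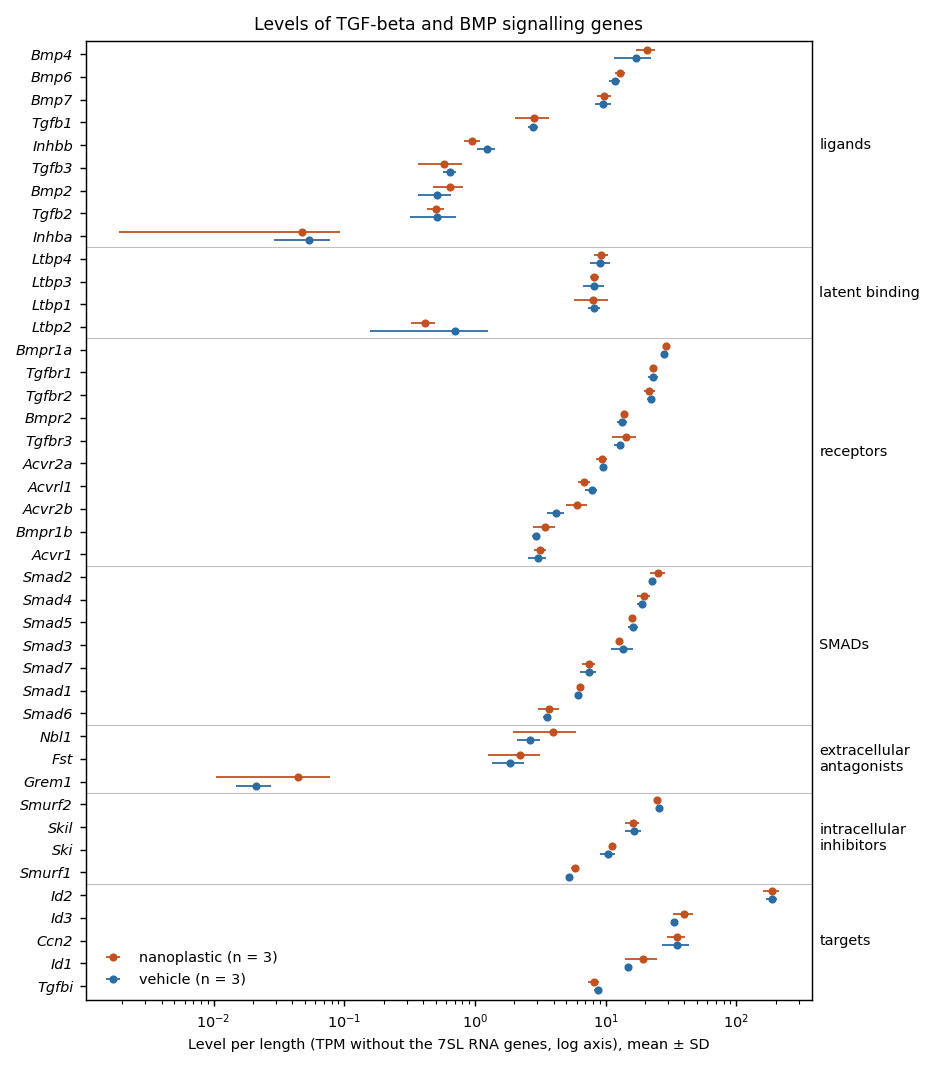
Level per length (TPM without the 7SL RNA genes, log axis) of all 42 members, mean ± SD of the 3 nanoplastic (orange) and 3 vehicle (blue) libraries, grouped by role and ordered by level. Id2 is the most abundant, at 186.4 TPM in nanoplastic and 187.8 TPM in vehicle kidneys, and Inhba and Grem1 lie below 0.1 TPM.

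Latent TGF-beta binding proteins hold the secreted TGF-beta complex in the matrix until it is activated, and LTBP2 binds fibrillin rather than TGF-beta. Ltbp4, Ltbp3 and Ltbp1 had similar levels, at 9.27 ± 1.17, 8.21 ± 0.616 and 8.03 ± 2.32 TPM in nanoplastic and 9.13 ± 1.58, 8.17 ± 1.48 and 8.18 ± 0.891 TPM in vehicle kidneys (SD, n = 3 each). Ltbp4 had 31.5, 33.1 and 35.0 CPM in nanoplastic and 38.2, 30.9 and 35.2 CPM in vehicle libraries. Ltbp3 had 16.6, 15.2 and 15.7 CPM in nanoplastic and 15.9, 14.7 and 15.9 CPM in vehicle libraries. Both overlapped, with log2 fold changes of -0.07 (SE 0.09) for Ltbp4 and 0.03 (SE 0.08) for Ltbp3. Ltbp1 varied more among the nanoplastic mice than between groups, at 43.0 CPM in nanoplastic 1 and 26.7 CPM in nanoplastic 3 (log2 fold change -0.02, SE 0.16). Without nanoplastic 1 and vehicle 3, Ltbp1 was lower in nanoplastic at a log2 fold change of -0.346 (adjusted p = 0.289, edgeR). Ltbp2 was rare and uneven, at 0.411 ± 0.0863 TPM in nanoplastic and 0.710 ± 0.551 TPM in vehicle kidneys.

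The 10 receptors were all tested, and none passed. The type I receptors Bmpr1a, for BMPs, and Tgfbr1, for TGF-beta, were the most abundant per length, at 29.1 ± 1.08 and 23.0 ± 0.650 TPM in nanoplastic and 27.9 ± 1.66 and 23.2 ± 1.91 TPM in vehicle kidneys (SD, n = 3 each). The type II receptor Tgfbr2 averaged 21.6 ± 2.11 TPM in nanoplastic and 22.2 ± 1.3 TPM in vehicle kidneys, within the spread of Tgfbr1 in vehicle kidneys. Bmpr2, the type II receptor for BMPs, and Tgfbr3, the coreceptor betaglycan, averaged 13.7 and 13.5 TPM over all 6 libraries.

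Bmpr1a had 96.9, 82.2 and 82.4 CPM in nanoplastic and 86.0, 93.0 and 86.7 CPM in vehicle libraries. Tgfbr1 had 89.7, 85.4 and 87.6 CPM in nanoplastic and 88.5, 92.9 and 95.04 CPM in vehicle libraries. Nanoplastic 1 was highest for Bmpr1a and vehicle 3 for Tgfbr1, and the groups overlapped in both. The log2 fold changes were -0.02 (SE 0.08) for Bmpr1a and -0.07 (SE 0.06) for Tgfbr1, whose interval ran from -0.21 to 0.06. Tgfbr2 and Bmpr2, at -0.06 (SE 0.07) and 0.01 (SE 0.07), had intervals as narrow. The log2 fold change was -0.05 (SE 0.15) for Acvr1, a BMP type I receptor, and -0.01 (SE 0.08) for Acvr2a, an activin type II receptor. For Acvrl1, a BMP type I receptor of endothelium, it was -0.12 (SE 0.09). The 10 endothelial markers, all above the filter, summed to 563.1 to 623.5 CPM in nanoplastic and 583.8 to 601.6 CPM in vehicle libraries.

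Acvr2b, the other activin type II receptor, was the 1 member at an unadjusted p under 0.05. It had 7.55, 10.6 and 8.37 CPM in the nanoplastic libraries, against 7.95, 5.94 and 6.46 CPM in the vehicle libraries. Nanoplastic 2 was highest and the groups overlapped, since nanoplastic 1 lay below vehicle 1. Its log2 fold change was 0.38 (SE 0.16, interval 0.02 to 0.74; edgeR adjusted p = 0.673). Its unadjusted p was 0.0393, and 3.69% of all genes were higher in nanoplastic at an unadjusted p under 0.05. The p of Acvr2b missed 0.05 at a log2 fold change of 0.23 without nanoplastic 2, 0.30 without vehicle 2, 0.35 without vehicle 3 and 0.38 in the fit with the replicate number as a block.

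Bmpr1b, a type I receptor for BMPs, was also higher on average in nanoplastic. It had 13.9, 12.1 and 10.5 CPM in nanoplastic and 10.6, 10.4 and 9.73 CPM in vehicle libraries. Only vehicle 1 exceeded the lowest nanoplastic value, that of nanoplastic 3 (log2 fold change 0.25, SE 0.12; edgeR adjusted p = 0.691). Tgfbr3 had 65.8 CPM in nanoplastic 1 and 41.2 CPM in nanoplastic 3, with the vehicle libraries between them at 45.4 to 48.9 CPM (log2 fold change 0.13, SE 0.14).

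**Figure D3:**
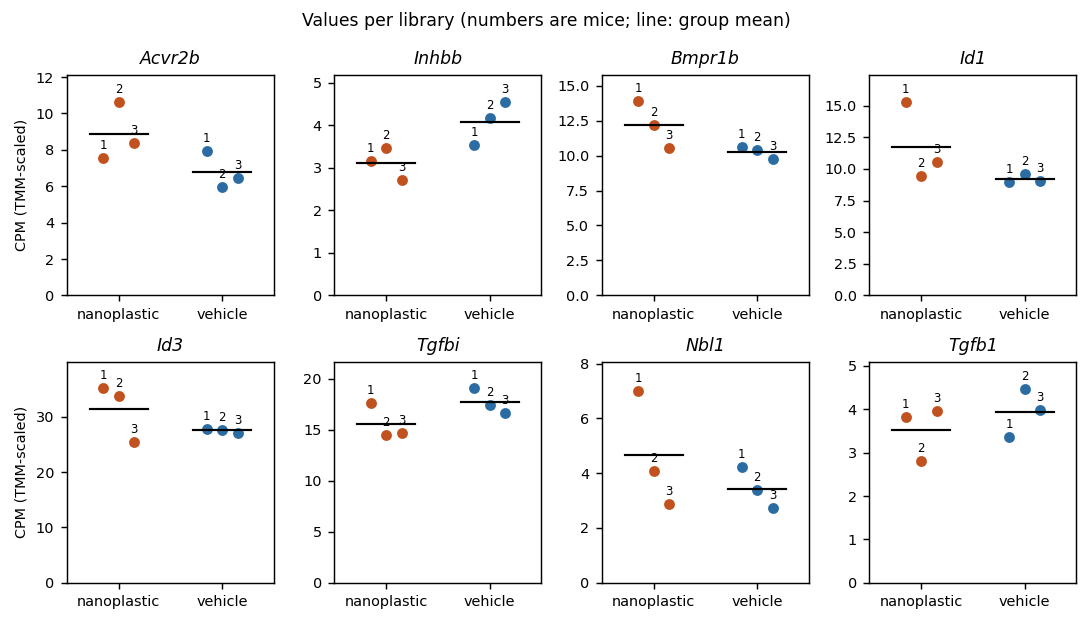
TMM-scaled CPM (vertical axis, from 0) of 8 members in each library; the numbers are the mice and the line is the group mean of 3. In Inhbb the 3 nanoplastic points lie below the 3 vehicle points, in the other 7 genes the groups overlap, and in Id1 and Nbl1 nanoplastic 1 lies far above the rest.

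None of the 7 SMAD transcripts passed the test. Smad2 and Smad3, which carry TGF-beta and activin signals, averaged 25.3 ± 3.31 and 12.6 ± 0.392 TPM in nanoplastic and 22.5 ± 1.11 and 13.6 ± 2.58 TPM in vehicle kidneys (SD, n = 3 each). Smad5 and Smad1, which carry BMP signals, averaged 15.8 ± 0.737 and 6.34 ± 0.352 TPM in nanoplastic and 16.3 ± 1.5 and 6.17 ± 0.359 TPM in vehicle kidneys. Smad4, the partner shared by both branches, averaged 19.6 ± 2.20 TPM in nanoplastic and 18.9 ± 1.58 TPM in vehicle kidneys. The inhibitory Smad7 and Smad6 were lower, at 7.40 ± 0.818 and 3.71 ± 0.654 TPM in nanoplastic and 7.41 ± 1.05 and 3.55 ± 0.258 TPM in vehicle kidneys.

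Smad2 had 62.2, 52.7 and 58.3 CPM in nanoplastic and 52.9, 50.6 and 52.7 CPM in vehicle libraries. Nanoplastic 1 and 3 were above all vehicle libraries, and nanoplastic 2 was among them. For Smad2 the log2 fold change was 0.15 (SE 0.07, interval -0.02 to 0.31; edgeR adjusted p = 0.712). Smad4 had 44.6, 44.7 and 37.0 CPM in nanoplastic and 40.3, 45.0 and 43.0 CPM in vehicle libraries, with nanoplastic 3 lowest (log2 fold change -0.02, SE 0.09).

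Smad7, an inhibitory SMAD that TGF-beta itself induces, had 16.8, 16.2 and 15.4 CPM in nanoplastic and 14.9, 16.1 and 19.1 CPM in vehicle libraries. The nanoplastic values lay inside the vehicle range, and the log2 fold change was -0.05 (SE 0.10, interval -0.28 to 0.18). In the remaining SMADs the log2 fold change was 0.05 for Smad1 (SE 0.10), -0.02 for Smad3 (SE 0.07), -0.06 for Smad5 (SE 0.07) and 0.03 for Smad6 (SE 0.14).

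Extracellular antagonists bind ligands before they reach a receptor. Nbl1, a BMP antagonist of the DAN family, had 6.98, 4.09 and 2.86 CPM in nanoplastic and 4.21, 3.38 and 2.72 CPM in vehicle libraries. Nanoplastic 1 was the highest and the groups overlapped (log2 fold change 0.44, SE 0.30, interval -0.22 to 1.10). Without nanoplastic 1 and vehicle 3 the log2 fold change was -0.11. Fst, the activin antagonist follistatin, had 3.09, 3.05 and 0.936 CPM in nanoplastic and 2.96, 2.38 and 1.44 CPM in vehicle libraries. Nanoplastic 3 and vehicle 3 were below the other 4 libraries in both groups, with a log2 fold change of 0.07 (SE 0.40, interval -0.81 to 0.96). Grem1, a BMP antagonist known to be induced in fibrotic kidney, was below the filter, with 9 counts over the nanoplastic and 5 over the vehicle libraries.

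None of the 4 intracellular inhibitors passed the test. Smurf2 and Smurf1 are ubiquitin ligases that act on receptors and SMADs, and Skil and Ski are corepressors that bind SMADs. Smurf2 had 71.7, 76.2 and 81.5 CPM in nanoplastic and 82.0, 82.3 and 77.6 CPM in vehicle libraries. Skil, which TGF-beta also induces, had 74.1, 60.6 and 75.8 CPM in nanoplastic and 68.2, 78.3 and 73.1 CPM in vehicle libraries. The groups overlapped in both, and nanoplastic 2 was lowest in Skil and nanoplastic 1 in Smurf2. The log2 fold changes were -0.08 (SE 0.07) for Smurf2, -0.06 (SE 0.09) for Skil, 0.06 (SE 0.08) for Ski and 0.04 (SE 0.07) for Smurf1.

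Target genes report on the pathway's output. Id1, Id2 and Id3 encode inhibitors of DNA binding that BMPs induce through SMAD1 and SMAD5, and Ccn2, formerly Ctgf, and Tgfbi encode matrix proteins that TGF-beta induces. Id2 was the most abundant member, at 186.4 ± 26.2 TPM in nanoplastic and 187.8 ± 18.4 TPM in vehicle kidneys (SD, n = 3 each). Id3 and Ccn2 came next and did not differ beyond their spread, at 39.5 ± 6.75 and 35.0 ± 5.37 TPM in nanoplastic and 33.4 ± 0.682 and 35.2 ± 8.18 TPM in vehicle kidneys.

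Id1 had 15.3, 9.43 and 10.6 CPM in nanoplastic and 8.96, 9.58 and 9.05 CPM in vehicle libraries. Nanoplastic 1 stood above all others, and nanoplastic 2 lay within the vehicle range. The log2 fold change was 0.36 (SE 0.16, interval -0.01 to 0.72; edgeR adjusted p = 0.691), and for Id1 without nanoplastic 1 it was 0.12. Id3 had 35.2, 33.7 and 25.4 CPM in nanoplastic and 27.8, 27.7 and 27.1 CPM in vehicle libraries. Nanoplastic 1 and 2 were above the vehicle libraries and nanoplastic 3 below them, which gave a log2 fold change of 0.19 (SE 0.11; edgeR adjusted p = 0.734) over the 6 libraries and of 0.322 (adjusted p = 0.284) without nanoplastic 3. Id2 had 169.8, 168.3 and 135.9 CPM in nanoplastic and 146.0, 173.1 and 165.5 CPM in vehicle libraries, with overlapping groups and a log2 fold change of -0.03 (SE 0.10). The 3 Id genes thus did not share 1 pattern: nanoplastic 3 was the lowest library in Id2 and Id3 but not in Id1.

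Ccn2 had 51.5, 69.6 and 65.5 CPM in nanoplastic and 48.0, 80.6 and 62.2 CPM in vehicle libraries. Vehicle 1 was lowest and vehicle 2 highest, so the vehicle range held all nanoplastic values (log2 fold change -0.03, SE 0.17, interval -0.40 to 0.34). Tgfbi had 17.6, 14.4 and 14.7 CPM in nanoplastic and 19.1, 17.4 and 16.6 CPM in vehicle libraries. Nanoplastic 2 and 3 were below the vehicle libraries and nanoplastic 1 was among them (log2 fold change -0.18, SE 0.10; edgeR adjusted p = 0.734), and without nanoplastic 1 the value was -0.28 (adjusted p = 0.584).

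The promoters of Id2 and Id3 are shown because these are the most abundant BMP targets in the data and their windows differ in a BMP-responsive motif. GGCGCC, which reads the same on both strands, is the GC-rich element known from the mouse Id1 enhancer, and CAGACA, searched on both strands like the others, holds the SMAD box. Each line gives the 250 bases upstream of the RefSeq start, 5′ to 3′ on the gene's strand, from RefSeq on GRCm38.p6, a different build from the GRCm39 of the deposited tables, at chr12:25096093-25096342 (minus strand) for Id2 and chr4:136143572-136143821 (plus strand) for Id3. Capitals mark a match to any of the motifs searched.
Id2: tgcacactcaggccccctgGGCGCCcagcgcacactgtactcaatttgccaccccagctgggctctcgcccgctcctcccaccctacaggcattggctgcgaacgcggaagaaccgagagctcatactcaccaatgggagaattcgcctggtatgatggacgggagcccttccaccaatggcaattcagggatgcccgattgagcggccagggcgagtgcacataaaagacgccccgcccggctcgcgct
Id3: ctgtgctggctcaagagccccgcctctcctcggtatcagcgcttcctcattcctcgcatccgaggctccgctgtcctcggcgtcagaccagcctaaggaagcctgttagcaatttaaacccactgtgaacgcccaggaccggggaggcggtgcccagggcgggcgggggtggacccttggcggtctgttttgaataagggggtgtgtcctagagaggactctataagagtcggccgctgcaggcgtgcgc
Id2 held 1 GGCGCC and Id3 none of the motifs in these letters, which says nothing about the factors. Promoter windows of 300 bases (250 before to 50 after the start) were matched for 30 of the 42 members. GGCGCC was in the windows of 11 of these 30 (36.7%), against 13.4% of 27025 genes with a window, at a median GC content of 67.0% in the members and 53.3% in all genes. CAGACA was in 7 of 30 (23.3%), against 23.6% of all, and TGANTCA, which covers the AP-1 motif, in 1 of 30 (3.33%), against 8.97% of all. A match to so short a motif is not by itself a site.

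Many members had their extreme values in the same libraries. Nanoplastic 1 was the highest of the 6 libraries in 18 of 40 tested members (45.0%), against 21.8% of all genes, and nanoplastic 3 the lowest in 13 of 40, against 17.7% of all genes. In 9 members (22.5%, against 5.65% of all genes) nanoplastic 1 was highest and nanoplastic 3 lowest: Tgfb3, Ltbp1, Tgfbr2, Tgfbr3, Acvr2a, Smad1, Smad6, Fst and Id3. Nanoplastic 1 was the library with the highest sums of adipocyte, urothelial and principal cell markers. It was also highest in the summed markers of endothelium (623.5 CPM) and of mural cells, those of vessel walls (218.4 CPM). Nanoplastic 3 was lowest in the summed markers of mural cells (176.2 CPM), fibroblasts (662.7 CPM) and thick limb (6119.0 CPM). Of the single markers in these lists, only some were lowest there. These were Umod, Slc12a1, Cldn16 and Egf of the thick limb, Pdgfra and Lum of fibroblasts, and Cnn1, Rgs5 and Ren1 of mural cells. Kcnj1 of the thick limb was highest in nanoplastic 3 (293.5 CPM). The part of any of these cells in the members' values was not tested. When nanoplastic 1 and vehicle 3 were both left out, 13 members (32.5%, against 41.7% of all genes) did not overlap between the groups, 4 (10.0%, against 9.84% of all genes) had an unadjusted p under 0.05, and 0 had an adjusted p under 0.05 with edgeR.

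**Figure D4:**
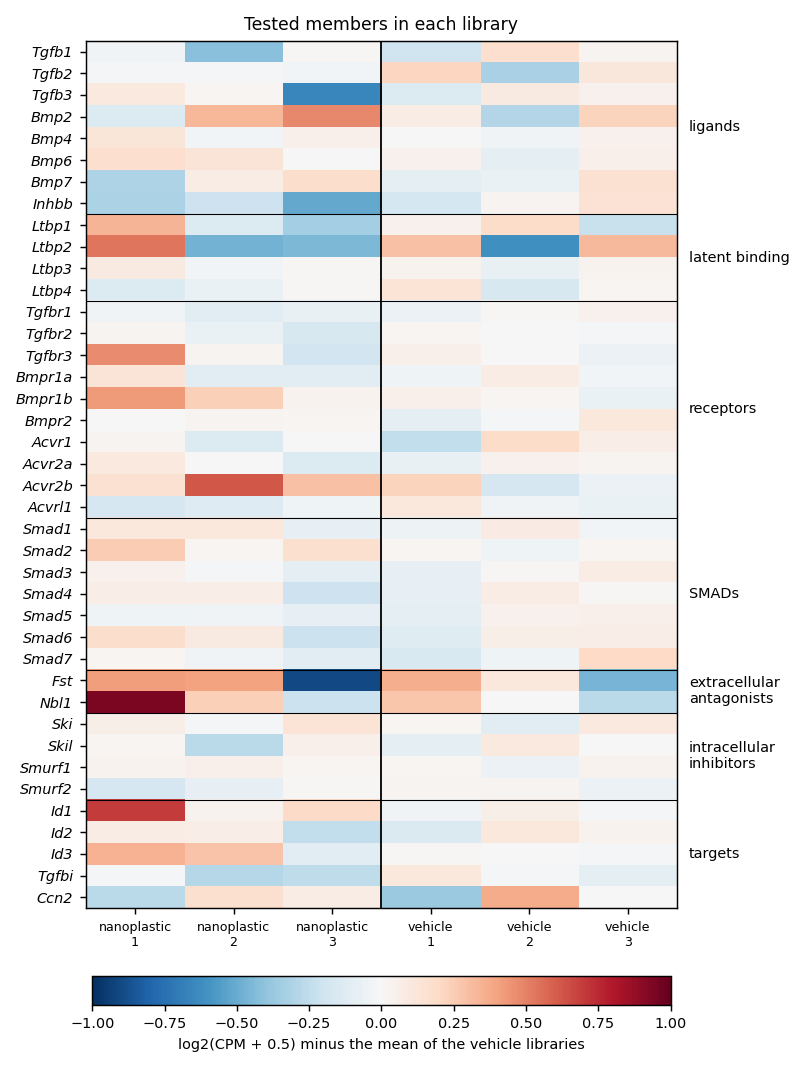
Log2(CPM + 0.5) of each tested member in each library, minus the mean of the 3 vehicle libraries; rows are members by role and columns are libraries, nanoplastic left of vehicle. Red cells gather in nanoplastic 1, with Nbl1 and Id1 the deepest, and blue cells in nanoplastic 3.

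Other genes of the pathway, 93 in 5 lists, were also examined. The lists were drawn up with earlier results of these data known, including the low collagen and fibronectin values, so their counts are not independent of them. Of the 67 that were tested, the groups did not overlap in 11, all lower in nanoplastic (16.4%, against 6.32% of all genes in that direction). Of these 67 genes, 0 had an edgeR adjusted p under 0.05, and 7 had an unadjusted p under 0.05, all lower in nanoplastic (10.4%, against 3.5% of all genes in that direction). With DESeq2 and limma-voom, 6 and 5 of the 17 tested targets were lower at that unadjusted level, against 6 with edgeR. Of all genes, 4.96% with DESeq2 and 7.19% with limma-voom passed that level in either direction. The methods used the same counts, so their results are not separate observations.

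The 6 with edgeR were matrix and contractile targets of TGF-beta, namely Col1a1, Col1a2, Col3a1, Fn1, Tagln and Ccn1. Col1a2, a chain of type I collagen, had 73.9, 53.4 and 56.1 CPM in nanoplastic and 84.3, 86.8 and 75.0 CPM in vehicle libraries. All 3 nanoplastic values were below the vehicle values, with a log2 fold change of -0.42 (SE 0.12; edgeR adjusted p = 0.524). Col1a1, Col3a1 and Fn1 did not overlap either, at log2 fold changes of -0.69, -0.72 and -0.44. With Col1a2 these were 4 of the 17 tested targets (23.5%, against 6.32% of all genes in that direction). Tagln, an actin-binding protein of smooth muscle, had 17.7, 15.6 and 16.7 CPM in nanoplastic and 22.8, 23.8 and 16.1 CPM in vehicle libraries, with vehicle 3 below 2 of the nanoplastic mice (log2 fold change -0.33, SE 0.13). Ccn1, a relative of Ccn2 that also answers to early response signals, had 19.2, 21.0 and 24.7 CPM in nanoplastic and 24.5, 79.0 and 38.9 CPM in vehicle libraries, with vehicle 2 far above the rest and vehicle 1 below nanoplastic 3 (log2 fold change -1.13, SE 0.33). For Acta2, smooth muscle actin, the log2 fold change was -0.14 (SE 0.09), and for Postn, the matrix protein periostin, -0.08 (SE 0.42).

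Markers of fibroblasts, a main source of collagen, are given beside these targets. All 8 had a negative log2 fold change or one that rounds to 0, with a median of -0.224. At an unadjusted p under 0.05 were 3 of 8, against 3.5% of all genes in that direction. These were the collagen genes Col14a1 (-0.36) and Col15a1 (-0.51) and the matrix gene Fbln5 (-0.22), so the list partly holds collagen genes itself. The log2 fold change of the receptor Pdgfra rounded to 0 (SE 0.18), and that of Pdgfrb was -0.06 (SE 0.10). The 8 markers summed to 662.7 to 780.6 CPM in nanoplastic and 680.8 to 886.2 CPM in vehicle libraries, none of them at 0 in a library. The part of fibroblasts in the collagen values was not tested. The 5 erythrocyte markers were also lower, all at an unadjusted p under 0.05, against 3.5% of all genes in that direction. All but Alas2 are globin genes, so they are not 5 separate observations. Their median log2 fold change was -0.49, with sums of 487.6 to 625.8 CPM in nanoplastic and 579.2 to 860.5 CPM in vehicle libraries. Vehicle 3 lay below nanoplastic 1, and the part of these cells was not tested either. The 8 mural cell markers, which include Acta2 and Tagln, summed to 176.2 to 218.4 CPM in nanoplastic and 189.1 to 209.9 CPM in vehicle libraries.

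**Figure D5:**
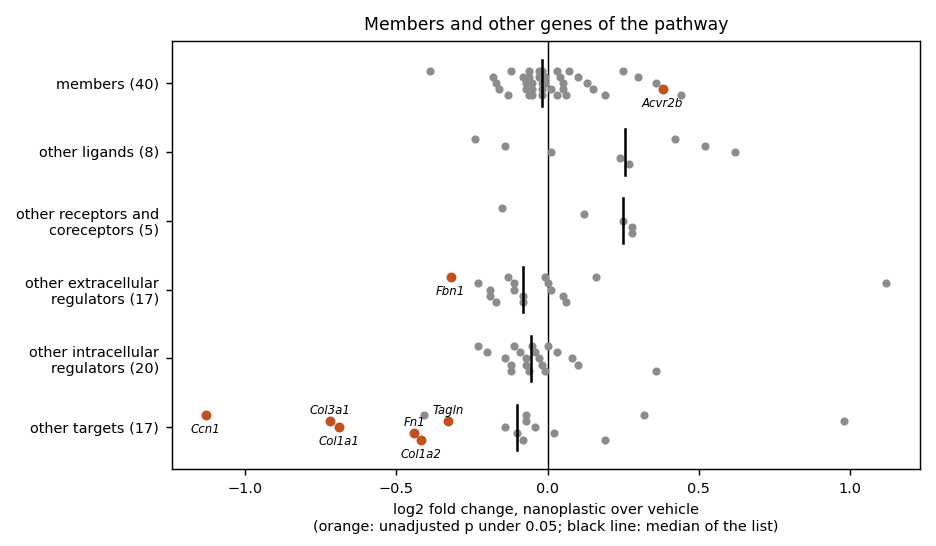
Log2 fold change of nanoplastic over vehicle for each tested gene of the members and of 5 other pathway lists (number of genes in brackets); orange points have an unadjusted p under 0.05 and the black line is the median of a list. The members centre on -0.021 and the other targets on -0.104, with 6 orange points below 0.

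Among activators and reservoirs of TGF-beta, Fbn1 had the 1 unadjusted p under 0.05. Fbn1, which encodes the fibrillin that anchors latent TGF-beta complexes, had 38.5, 30.3 and 32.1 CPM in nanoplastic and 45.1, 41.9 and 38.9 CPM in vehicle libraries. The groups did not overlap (log2 fold change -0.32, SE 0.10; edgeR adjusted p = 0.542). Itgb6, the integrin subunit that releases active TGF-beta on epithelium, had 206.5, 185.2 and 213.2 CPM in nanoplastic and 217.3, 248.0 and 215.3 CPM in vehicle libraries, again without overlap (log2 fold change -0.17, SE 0.08). Lrrc32, a docking receptor for latent TGF-beta, had a log2 fold change of -0.19 (SE 0.10), also without overlap. These 3 were the only ones without overlap among 17 tested extracellular regulators (17.6%, against 6.32% of all genes in that direction).

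Among other receptors, Eng, the endothelial coreceptor endoglin, had 52.4, 45.0 and 47.5 CPM in nanoplastic and 53.4, 54.5 and 53.3 CPM in vehicle libraries, without overlap (log2 fold change -0.15, SE 0.07). The log2 fold change was 0.25 for Rgmb, a BMP coreceptor (SE 0.11), and 0.12 for Acvr1b, the activin type I receptor (SE 0.07). Among other ligands the lowest p values were those of Bmp3, Gdf11 and Bmp8a, whose log2 fold changes were 0.52 for Bmp3 (SE 0.25), 0.27 for Gdf11 (SE 0.15) and 0.62 for Bmp8a (SE 0.44). Among intracellular regulators the value was -0.14 for Fkbp1a, which keeps type I receptors inactive (SE 0.07). It was -0.11 for Strap, which works with SMAD7 (SE 0.06), and both genes were without overlap. For Pmepa1, a TGF-beta-induced inhibitor, it was -0.20 (SE 0.12), with overlapping groups. None of these genes had an edgeR adjusted p under 0.05.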

How the data were processed

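Per the submitters' processing notes, the tools were FastQC, Trim Galore (0.6.6), the aligner STAR (2.7.9a) and the quantifier RSEM (1.3.3), with genome build GRCm39. No source used here gives the annotation release or the strandedness, so reads of a gene and of its antisense partner cannot be told apart. The authors deposited RSEM expected counts, which are not normalized, and TPM per gene, 1 table per mouse, per the file headers. RSEM shares reads among genes they fit, so 10.4% to 11.1% of genes held values that are not whole.

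Symbols came from a table that named 51884 of 57180 Ensembl IDs. Expected counts were rounded, passed through filterByExpr and TMM scaling, and 18092 genes were tested by edgeR's quasi-likelihood test (version 4.0.16, R 4.3.3; treatment alone in the model), with a Benjamini-Hochberg threshold of 0.05. Intervals are 95% intervals that include the spread between mice; their median half-width was 0.282 log2 units. No source used here names molecular identifiers, so floors cover counting error only. Levels per length were recomputed from expected counts and effective lengths without Rn7s1 and Rn7s2, which took 55.5% to 59.4% of the deposited TPM. The edgeR step was tested on simulated data. DESeq2 1.42.0 and limma 3.58.1 were alternatives.

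The members and lists were chosen with earlier results of these data known. Values in every library are given for members with an unadjusted p under 0.05, members without overlap, the 2 most abundant per role, and Tgfb1, Bmp7, Smad7, Id1 and Ccn2. Values by library for Bmpr1b, Tgfbi, Tgfbr3, Ltbp1 and Bmp2 were added after they were seen. Of other pathway genes, those with an unadjusted p under 0.05 and the 3 with the lowest p per list are named. Acta2 and Postn were added after their values were seen.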

Additional observations from a re-analysis of the deposited data

How the results depend on the processing

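Across 15 alternatives 0 members had an adjusted p under 0.05. The count over all genes, 0 with edgeR and 1301 at an unadjusted p under 0.05, was 58 with DESeq2, 207 without a filter on low counts, 27 without nanoplastic 1 and vehicle 3, and 0 to 5 with 1 library left out. Members at an unadjusted p under 0.05 numbered 1, against 2 with DESeq2 (5.0%, against 4.96% of all genes), 4 with library size alone (10.0%, against 7.71%), 2 without a filter (4.76%, against 6.67%), 2 with the replicate block (5.0%, against 7.41%), 4 without nanoplastic 1 and vehicle 3 (10.0%, against 9.84%), and 0 to 6 with 1 library left out. The 6 were reached without nanoplastic 3 (14.6%, against 9.29%), and the 0 without vehicle 2 (3.83% of all genes) or vehicle 3 (8.2%). Members without overlap numbered 1, against 4 with library size alone (10.0%, against 13.2% of all genes), 3 with limma on log2(TPM + 0.1) (7.5%, against 9.46%), 13 without nanoplastic 1 and vehicle 3 (32.5%, against 41.7%), and 4 to 9 with 1 library left out (9.76% to 22.0%, against 18.4% to 26.8%), where fewer libraries make overlap rarer. The median log2 fold change of the members was -0.021, 0.027 with library size alone, 0.061 with limma on log2(TPM + 0.1) and -0.050 to 0.045 with 1 library left out. Other targets lower at an unadjusted p under 0.05 numbered 6 (35.3%, against 3.5% of all genes in that direction). They numbered 4 to 7 over the alternatives, which were applied to this count after seeing the data.

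Of 315 values of the 21 members that the rule for values in every library names, 275 kept their sign and 40, in 13 members, did not, all with an adjusted p above 0.05; the cause was not tested. Limma on log2(TPM + 0.1) used the deposited TPM, which include the 7SL RNA genes. Those genes took 55.5%, 56.2% and 59.4% of it in nanoplastic 1, 2 and 3, and 58.5%, 58.5% and 57.3% in vehicle 1, 2 and 3. With limma on log2(TPM + 0.1) the log2 fold changes turned to 0.02 in Tgfb1, 0.024 in Tgfbr1, 0.059 in Bmp7, 0.093 in Bmpr1a, 0.044 in Ccn2, 0.018 in Id2, 0.063 in Ltbp4, 0.087 in Smad4 and 0.036 in Smad7. With library size alone they turned to 0.027 in Bmp7, 0.024 in Bmpr1a, 0.0098 in Ccn2, 0.014 in Id2 and 0.026 in Smad4. Without nanoplastic 1 and vehicle 3 they turned to 0.21 in Bmp7, 0.077 in Ccn2, -0.38 in Fst, -0.11 in Nbl1 and 0.035 in Smad7. In Fst the value was -0.0042 with limma-voom and -0.0019 with the replicate block. With 1 library left out, values of both signs ran from -0.11 to 0.13 in Bmp7, -0.1 to 0.018 in Bmpr1a, -0.2 to 0.18 in Ccn2, -0.16 to 0.43 in Fst, -0.1 to 0.065 in Id2, -0.011 to 0.054 in Ltbp3, -0.15 to 0.0043 in Ltbp4, -0.12 to 0.034 in Skil, -0.064 to 0.063 in Smad4 and -0.13 to 0.06 in Smad7.

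Same-numbered mice 1, 2 and 3 had r = 0.069, -0.0476 and 0.151 between their deviations from the group mean over 15461 genes. Differently numbered mice had r of -0.172 to 0.108, so only number 3 lay above that range. With groups of 3 these values cannot exclude a shared batch. The labels name no shared litter or day, so the samples were treated as unpaired.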

Other observations

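Several relatives of the members were rare in kidney. Of 93 other pathway genes 26 were below the count filter, and Mstn, Lefty2, Tdgf1 and Cer1 had 0 counts in all 6 libraries, which allows a level of up to 0.0214 CPM (3 counts over the 6 libraries together, counting error only). Acvr1c, an activin type I receptor known from fat tissue, had 69 counts in nanoplastic 1, 22 in vehicle 3, 1 in vehicle 1 and 0 elsewhere. The adipocyte gene Plin1 had 240 counts in nanoplastic 1, 63 in vehicle 3 and 0 in the other 4. The cell cycle inhibitor Cdkn2b, a TGF-beta target, measured 4.10 CPM in nanoplastic 1 and 0.520 to 1.17 CPM in the others.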
